A study of Homo sapiens with 6 samples.

Results

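The 9 genes described here are genes in which inherited variants are known to cause, or to raise the risk of, amyotrophic lateral sclerosis (ALS) and frontotemporal dementia (FTD), or that were proposed as such: TARDBP, EWSR1, TAF15, SOD1, C9orf72, VCP, SQSTM1, TBK1 and GRN. They were chosen by name, and all 9 were found among the 21301 genes of the RNA-seq table. The libraries came from SH-SY5Y, a human neuroblastoma line with a sympathetic neuroblast character, given a control siRNA (siControl) or an siRNA against PSF (siPSF), each at 10 nM for 72 h, with 3 libraries in each group. PSF, encoded by SFPQ, is a nuclear RNA-binding protein of splicing and transcription. The comparison addressed how the levels of these disease genes stood after PSF was lowered. The study used a single siRNA against PSF for this experiment, so an effect of its sequence and an effect of lower PSF cannot be told apart, and the cells carried no introduced disease variant.

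In ALS, motor neurons are lost, and in FTD, neurons of the frontal and temporal lobes are lost. In most patients with ALS the protein of TARDBP, TDP-43, leaves the nucleus and gathers in cytoplasmic inclusions. The disease genes fall into a few recurring roles: RNA-binding proteins, autophagy and the handling of damaged proteins, the lysosome, and an antioxidant enzyme whose mutant forms misfold.

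The targeted gene was lowered in every siPSF library. SFPQ stood at 372, 356 and 401 CPM (normalised counts per 1e6 counts) in siControl and at 209, 193 and 165 CPM in siPSF, a log2 fold change of -0.99 (SE 0.10, edgeR quasi-likelihood test with Benjamini-Hochberg adjusted p = 9.51e-05). The libraries held between 101540520 and 132420931 counts. A gene was called at an adjusted p under 0.05 over the 19694 genes tested, and 14.9% of them were called, 6.65% higher and 8.27% lower in siPSF. That is 1310 higher and 1628 lower genes. Over the 14827 genes tested by limma on rescaled FPKM values, 429 were called higher and 3073 lower. The median log2 fold change of all genes was -0.16 there and 0.01 by edgeR. The 10 markers of sympathetic neuroblasts were all detected. Of these, DBH (1738 CPM in siControl, 1085 CPM in siPSF) and TH (0.741 and 0.320 CPM) were lower and GATA3 (400.3 and 493 CPM) was higher by the edgeR test, the last in 0 of the 6 fits that left out a library. DBH was called in 6 of those fits and TH, with 17 to 112 counts per library, in 4. Of 10 markers of other cell types, 7 were not listed, and COL1A1, COL1A2 and EPCAM summed to between 3.75 and 5.19 CPM in siControl and between 6.62 and 8.13 CPM in siPSF. Among them EPCAM (2.06 CPM in siControl, 3.73 CPM in siPSF) was called higher (log2 fold change 0.86, edgeR adjusted p = 0.0139). That call held in 5 of the 6 fits that left out a library. The part of these differences in the results was not tested.

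The bases just before the start sites were searched for short motifs. They also place the C9orf72 hexanucleotide, the element of these genes most often expanded in ALS and FTD. RefSeq windows of 250 bases before an annotated start (GRCh38.p14) were found for 7 of the 9 genes, 10 windows in all, and none was matched for SOD1 and TAF15. Both strands were searched for CACGTG, the E-box core within the CLEAR element bound by TFEB, for TGACNNNGC, the core of the antioxidant response element bound by NRF2, and for TCANGTGA, an E-box-like form that was chosen after the GRN window was seen. GGGGCC was searched on the gene's own strand. Shown are the windows of GRN, of TBK1 and of the downstream C9orf72 start, with matches in capitals.
GRN, chr17:44345052-44345301, plus strand: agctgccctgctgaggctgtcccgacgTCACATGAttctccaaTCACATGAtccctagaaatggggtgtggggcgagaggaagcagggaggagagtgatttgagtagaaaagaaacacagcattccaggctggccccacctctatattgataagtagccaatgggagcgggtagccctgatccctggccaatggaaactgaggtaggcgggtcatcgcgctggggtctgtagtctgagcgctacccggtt
TBK1, chr12:64451870-64452119, plus strand: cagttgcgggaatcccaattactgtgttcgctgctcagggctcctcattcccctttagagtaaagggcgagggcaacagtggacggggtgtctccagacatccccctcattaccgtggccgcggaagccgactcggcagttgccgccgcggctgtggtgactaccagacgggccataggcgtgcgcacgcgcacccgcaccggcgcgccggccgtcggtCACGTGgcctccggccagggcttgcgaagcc
C9orf72, chr9:27573482-27573731, minus strand: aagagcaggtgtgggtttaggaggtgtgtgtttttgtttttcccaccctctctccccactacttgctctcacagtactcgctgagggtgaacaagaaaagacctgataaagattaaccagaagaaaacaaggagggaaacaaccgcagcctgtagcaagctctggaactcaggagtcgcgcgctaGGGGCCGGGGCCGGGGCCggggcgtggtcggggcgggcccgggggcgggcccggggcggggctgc

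The GRN window held TCACATGA at 223 and at 207 bases before the start, and TCANGTGA on either strand was present in 3.2% of the 35116 windows of this length in the whole RefSeq set. The TBK1 window held a single CACGTG, 31 bases before the start, a motif present in 6.34% of all windows. The VCP window, not printed, held TGACGTGGC at 189 bases before the start (TGACNNNGC in 10.9% of all windows). The C9orf72 window held 3 uninterrupted copies of GGGGCC, at 65, 59 and 53 bases before the downstream start (chr9:27573529-27573546), and 19.8% of all windows held at least 1 GGGGCC on the gene's strand. This is the reference sequence: the RNA-seq counts do not measure the length of the repeat in SH-SY5Y. Of the 3 SQSTM1 windows, not printed, 1 held 2 separate copies of GGGGCC and another held 3. The windows of TARDBP and EWSR1 and the upstream window of C9orf72 held none of these letters. A match describes the letters and was not linked here to binding.

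Before the groups are compared, the levels of the genes can be ordered only per exon length, in FPKM (fragments per exon length and sequencing depth). In siControl, SQSTM1 (103 ± 6.61 FPKM, SD, n = 3) and TAF15 (101 ± 2.46 FPKM) were highest and overlapped each other. SOD1 (96.6 ± 1.92 FPKM) lay below every TAF15 library but overlapped EWSR1 (91.1 ± 3.42 FPKM), which overlapped VCP (89.3 ± 1.86 FPKM). TARDBP (33.0 ± 3.01 FPKM) and GRN (28.5 ± 1.81 FPKM) followed, and their libraries did not overlap. C9orf72 (7.73 ± 1.14 FPKM) and TBK1 (6.13 ± 0.89 FPKM) were lowest and overlapped. So 5 of the genes lay within a narrow band from 89.3 to 103 FPKM, and the kinase TBK1 and C9orf72 lay more than 10-fold below that band. In siPSF the mean of SOD1 (112 ± 7.79 FPKM) was above that of SQSTM1 (105 ± 21.5 FPKM) and TAF15 (100.3 ± 2.18 FPKM), with SQSTM1 the most scattered of the 9. GRN (33.2 ± 0.74 FPKM) had a higher siPSF mean than TARDBP (30.5 ± 1.84 FPKM), and TBK1 (7.18 ± 0.70 FPKM) a higher one than C9orf72 (5.99 ± 1.18 FPKM). In each of these pairs the order of the means was the other way round in siControl. The exchanges of order were not tested.

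**Figure D1:**
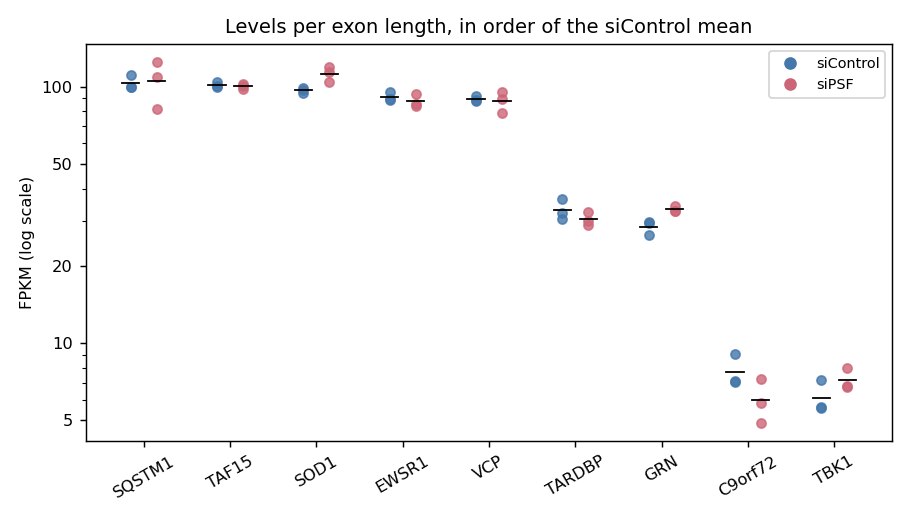
Each point is a library, in FPKM on a log axis, for the 9 genes ordered by their siControl mean, and the horizontal lines are group means of 3 libraries. From SQSTM1 to VCP the genes lay close together near 100 FPKM, while C9orf72 (7.73 FPKM in siControl) and TBK1 (6.13 FPKM) lay far below.

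SOD1 and GRN were higher in siPSF and the other 7 genes were not called. The called share was 2 of 9 (22.2%), beside 14.9% of all genes tested, and the median log2 fold change was 0.06 over the 9 genes and 0.01 over all genes. The fold change was above 0 for 6 genes and below 0 for 3. The siPSF libraries all lay above the siControl libraries for TAF15, SOD1, TBK1 and GRN, and for 0 genes all below. Of all genes tested, 34.4% were separated in this way, 16.7% upwards and 17.8% downwards. The labels do not say that the libraries came from separate cultures, although the study calls them biological triplicates, and p-values measure the spread between these libraries.

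**Figure D2:**
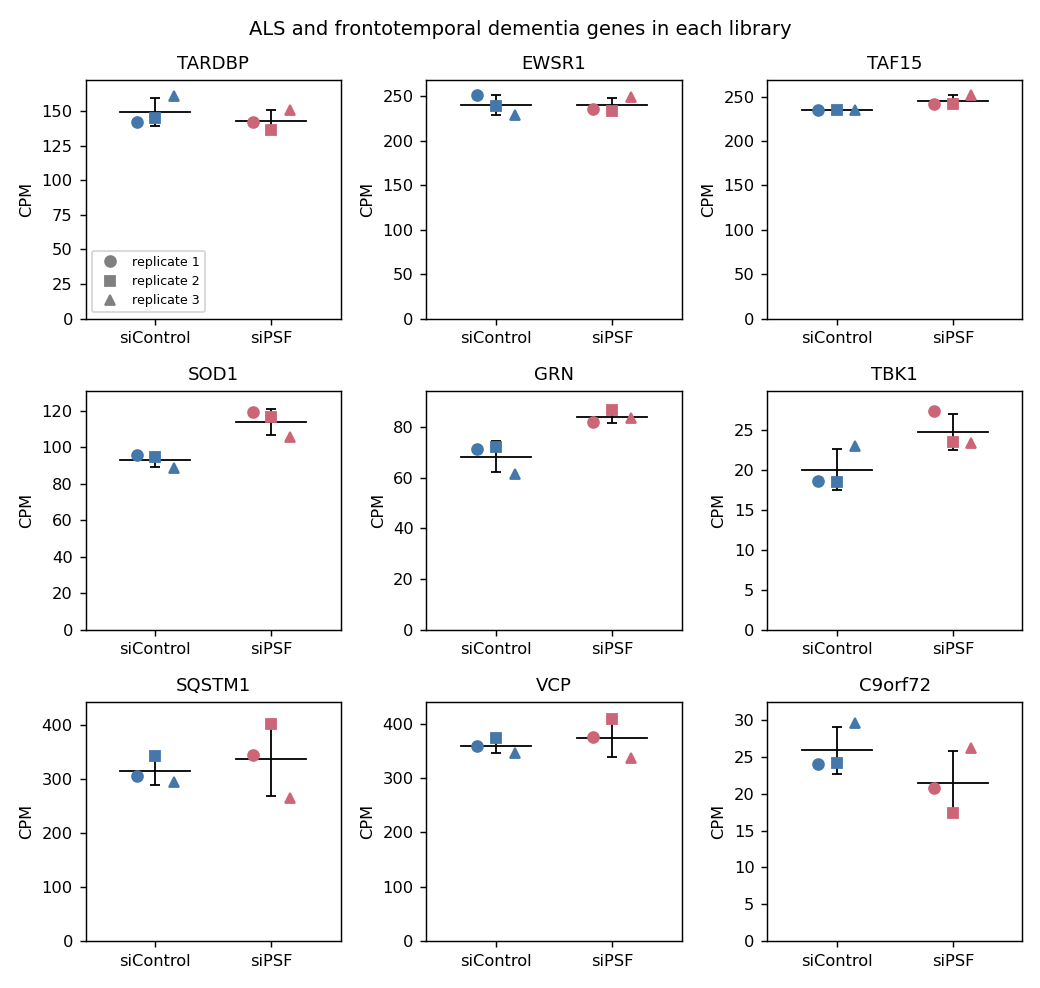
Each panel shows a gene in CPM on an axis from 0, with a point for each library, a line at the group mean and a bar of 1 SD (n = 3). The groups separate for SOD1, GRN, TBK1 and, narrowly, TAF15, and overlap for TARDBP, EWSR1, SQSTM1, VCP and C9orf72.

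None of the 3 genes of RNA-binding proteins was called. TARDBP on chromosome 1 (gene 23435, positions 11012654 to 11030528 of GRCh38) encodes TDP-43, which binds GU-rich RNA and represses cryptic exons. It stood at 142, 145 and 161 CPM in siControl and at 142, 136 and 151 CPM in siPSF. The groups overlapped, and replicate 3 was the highest of each. The log2 fold change was -0.06 (SE 0.084, 95% interval -0.24 to 0.12, edgeR adjusted p = 0.672). TARDBP overlaps the opposite-strand gene MASP2 and resembles the pseudogene TARDBPP2, both in the table, so that some of its reads could have been assigned otherwise.

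EWSR1 (gene 2130, chromosome 22, 29268268 to 29300521) and TAF15 (gene 8148, chromosome 17, 35809484 to 35847242) belong to the FET family, nuclear proteins with a low-complexity domain that act in transcription and splicing. EWSR1 was at 252, 240 and 230 CPM in siControl and at 236, 233 and 250 CPM in siPSF. Its groups overlapped almost fully, with a log2 fold change of -0.0032 (SE 0.080, interval -0.18 to 0.17, edgeR adjusted p = 0.985). TAF15 was at 235 CPM in each of the siControl libraries (SD 0.134) and at 242, 242 and 252 CPM in siPSF. All of its siPSF libraries were the higher ones, yet the difference was small, a log2 fold change of 0.06 (SE 0.076, interval -0.10 to 0.23, edgeR adjusted p = 0.620). Its sign was the opposite on the FPKM scales (-0.02 and, rescaled, -0.13). Over the all-gene medians of those scales TAF15 was at 0.04 and 0.03. The intervals of TARDBP, EWSR1 and TAF15 together span -0.24 to 0.23 in log2. EWSR1 overlaps the opposite-strand gene RHBDD3.

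SOD1 (gene 6647, chromosome 21, 31659693 to 31668931) encodes the copper-zinc superoxide dismutase of the cytosol, the enzyme that turns superoxide into hydrogen peroxide. Its level was 95.6, 94.6 and 88.4 CPM in siControl and 119, 116 and 106 CPM in siPSF. Every siPSF library was above every siControl library, and replicate 3 was the lowest of both groups. The mean rose from 92.9 ± 3.89 to 114 ± 7.06 CPM (SD, n = 3), 22.6% higher with a 95% interval of 8.30 to 38.8%. The log2 fold change was 0.29 (SE 0.082, edgeR quasi-likelihood test with Benjamini-Hochberg adjusted p = 0.0319). The call lay close to the threshold: it held in 1 of the 6 fits that left out a library, that without siPSF replicate 3 (edgeR adjusted p = 0.0127), and was lost without each of the others. The edgeR adjusted p was 0.0598, 0.0977 and 0.0808 without siControl replicates 1, 2 and 3, and 0.141 and 0.0929 without siPSF replicates 1 and 2. On rescaled FPKM the log2 fold change was 0.10 (limma adjusted p = 0.415), or 0.26 over the all-gene median of that scale.

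The genes of autophagy and protein quality control did not pass the test, and the kinase TBK1 came nearest to it. TBK1 (gene 29110, chromosome 12, 64452120 to 64502114) encodes a kinase that phosphorylates autophagy receptors and acts in innate immune signalling. It was at 18.7, 18.6 and 23.1 CPM in siControl and at 27.5, 23.6 and 23.4 CPM in siPSF. The groups did not overlap, but siControl replicate 3 lay just under the lowest siPSF library. The log2 fold change of 0.31 was the highest of the 9 genes (SE 0.12, interval 0.05 to 0.56, edgeR adjusted p = 0.0953), and without siControl replicate 3 it was 0.41 (edgeR adjusted p = 0.046). Without siPSF replicate 1 it was 0.23 (edgeR adjusted p = 0.325), without siControl replicate 2 it was 0.24 (edgeR adjusted p = 0.319), and on rescaled FPKM it was 0.11 (limma adjusted p = 0.568), or 0.27 over the all-gene median there.

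SQSTM1 (gene 8878, chromosome 5, 179806393 to 179838078) encodes p62, the receptor that carries ubiquitylated cargo to autophagosomes. It was at 306, 343 and 296 CPM in siControl and at 345, 403 and 265 CPM in siPSF. The siPSF group held both the highest and the lowest library, with a log2 fold change of 0.10 (SE 0.13, interval -0.18 to 0.38, edgeR adjusted p = 0.653). SQSTM1 shares positions with MGAT4B and MRNIP on the opposite strand. VCP (gene 7415, chromosome 9, 35056064 to 35072625) encodes the ATPase p97, which pulls ubiquitylated proteins out of complexes and membranes. It was at 358, 374 and 347 CPM in siControl and at 376, 408 and 338 CPM in siPSF. Here too siPSF replicates 2 and 3 were the highest and the lowest of the 6 libraries, and the log2 fold change was 0.06 (SE 0.090, interval -0.14 to 0.25, edgeR adjusted p = 0.721). The fold changes of SQSTM1 and VCP were below 0 on rescaled FPKM (-0.11 and -0.14), or 0.05 and 0.02 over the all-gene median there.

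C9orf72 (gene 203228, chromosome 9, 27546546 to 27573866) encodes a protein that forms a complex with SMCR8 and WDR41 in autophagy and lysosome control, and its first intron holds the GGGGCC repeat shown above. It was at 24.0, 24.2 and 29.6 CPM in siControl and at 20.8, 17.5 and 26.2 CPM in siPSF. Replicate 3 was the highest of each group, and siPSF replicate 3 lay above siControl replicates 1 and 2, so the groups overlapped. The mean was 26.0 ± 3.19 CPM against 21.5 ± 4.41 CPM, a log2 fold change of -0.27 (SE 0.14, interval -0.58 to 0.04, edgeR adjusted p = 0.223). The value leaned on single libraries: it was -0.44 without siPSF replicate 3 (edgeR adjusted p = 0.024), -0.15 without siPSF replicate 2 (edgeR adjusted p = 0.544) and -0.17 without siControl replicate 3 (edgeR adjusted p = 0.524). On rescaled FPKM it was -0.46 (limma adjusted p = 0.0739), or -0.30 over the all-gene median there. C9orf72 and TARDBP were the genes whose log2 fold change was below 0 with all 6 libraries and with each library left out in turn.

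GRN (gene 2896, chromosome 17, 44345302 to 44353106) encodes progranulin, a secreted and lysosomal protein, and FTD follows the loss of a single copy. It was at 71.5, 72.1 and 61.4 CPM in siControl and at 82.0, 86.9 and 83.4 CPM in siPSF. All siPSF libraries were above all siControl libraries, and siControl replicate 3 was the lowest of the 6. The mean rose from 68.3 ± 6.0 to 84.1 ± 2.52 CPM (SD, n = 3), 23.0% higher with an interval of 7.82 to 40.4%, a log2 fold change of 0.30 (SE 0.088, edgeR quasi-likelihood test with Benjamini-Hochberg adjusted p = 0.0384). As for SOD1, the call held in 1 of 6 fits that left out a library, that without siPSF replicate 3 (edgeR adjusted p = 0.0401), and was lost in the others. The edgeR adjusted p was 0.057, 0.0781 and 0.0899 without siControl replicates 1, 2 and 3, and 0.0896 and 0.11 without siPSF replicates 1 and 2. On rescaled FPKM the log2 fold change was 0.11 (limma adjusted p = 0.315), or 0.27 over the all-gene median.

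**Figure D3:**
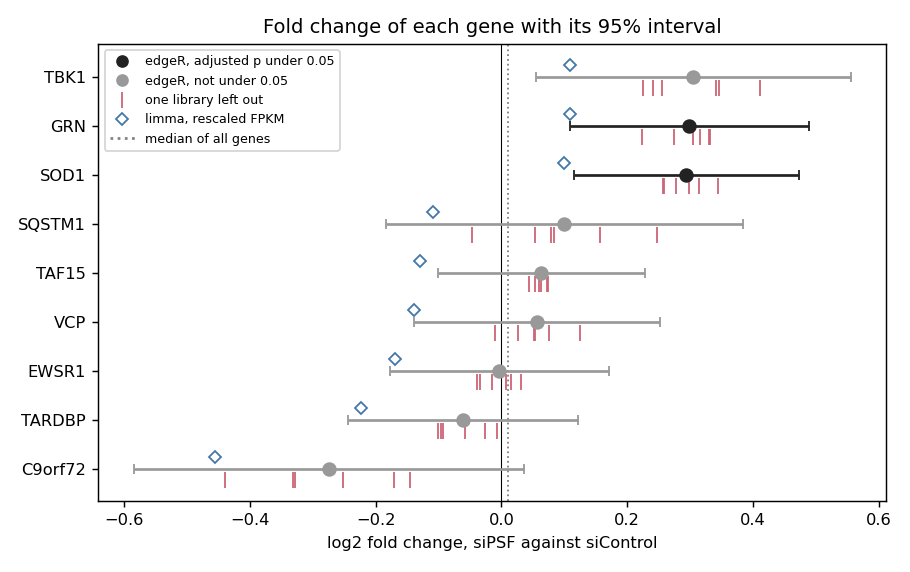
Points are log2 fold changes of siPSF against siControl with 95% intervals, black where the edgeR adjusted p was under 0.05. Red ticks leave out 1 library each, open diamonds are limma values on rescaled FPKM, and the dotted line is the median of all genes (0.01). SOD1, GRN and TBK1 form the upper group and C9orf72 is the lowest. Every tick lies above 0 for SOD1, GRN, TBK1 and TAF15 (0.0431 to 0.0742 for TAF15) and below 0 for C9orf72 and TARDBP.

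The libraries within siPSF differed more for some of the genes than the groups did. Replicate 3 was the lowest siPSF library for SFPQ, SOD1, VCP, SQSTM1 and TBK1 and the highest for TARDBP, EWSR1, TAF15 and C9orf72. The genes whose 6-library CPM profile was most like that of SOD1, among 10496 genes of at least 10 CPM, were PAGR1 (root mean square difference of centred log2 CPM 0.031) and SUPV3L1 (0.034). PAGR1 rose from 50.3 to 61.0 CPM (log2 fold change 0.28, edgeR adjusted p = 0.0404), and SUPV3L1, at 26.4 and 31.5 CPM, was not called (edgeR adjusted p = 0.0833). Nearest to GRN were UQCRH (0.020), a subunit of respiratory complex III, and PRKCSH (0.022), a glucosidase subunit of the endoplasmic reticulum. UQCRH rose from 325 to 399 CPM (log2 fold change 0.30, edgeR adjusted p = 0.0393), and PRKCSH, at 396 and 481 CPM, was not called (edgeR adjusted p = 0.0619). Because these genes were picked for likeness over the same libraries, their fold changes had to lie near those of SOD1 and GRN.

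Among 29 tested of 30 other genes of ALS and FTD, 2 were higher and 2 were lower (13.8% called, beside 14.9% of all genes), with a median log2 fold change of 0.03. HNRNPA1, a splicing repressor, rose from 835, 752 and 759 CPM to 1152, 1132 and 1371 CPM (log2 fold change 0.64, edgeR adjusted p = 0.0012). Every siPSF library was well above every siControl library, although HNRNPA1 has many near-identical pseudogenes that could share its reads. FIG4, a phosphoinositide phosphatase of endosomes, rose from 22.9, 22.2 and 22.8 CPM to 31.9, 29.8 and 30.9 CPM (0.45, edgeR adjusted p = 0.0055). MAPT, which encodes tau, fell from 36.8 to 27.3 CPM (-0.43), a call that held in 1 of the 6 fits that left out a library. HNRNPA1 and FIG4 held in all 6.

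Around the RNA-binding members, 2 of 16 transcripts known as TDP-43 targets were lower and 0 higher. The called share was 12.5%, beside 14.9% of all genes, and the median log2 fold change was -0.07. KALRN, a guanine nucleotide exchange factor of dendritic spines, fell from 49.3, 54.4 and 60.8 CPM to 29.0, 29.2 and 25.3 CPM (-0.98, edgeR adjusted p = 0.00014). Per exon length the difference was smaller, 5.41 against 3.90 FPKM and a log2 fold change of -0.53 on rescaled FPKM (limma adjusted p = 0.0113). For this gene of 693 kb, the exonic length implied by counts and FPKM, relative to the median gene, was 2.69 to 2.95 in siControl and 1.66 to 2.04 in siPSF. INSR, the insulin receptor, fell from a mean of 22.6 to 15.5 CPM (-0.54). None of 15 partners of the FET proteins was called by edgeR with all libraries or by DESeq2, with 2 at an unadjusted p under 0.05 by edgeR. With the replicate number as a block, edgeR called 1 higher, and limma on rescaled FPKM called 1 lower. The fits that left out a library called 0 to 1. TNPO1, the nuclear import receptor of the FET family, had means of 192 CPM (siControl) and 159 CPM (siPSF) (-0.27, edgeR adjusted p = 0.156).

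Around C9orf72, 1 of 9 genes of its complex and autophagy partners was called (11.1%, beside 14.9% of all genes). ATG13, a subunit of the kinase complex that starts autophagy, fell from 175 to 121 CPM (-0.53). Its siPSF replicate 3 was at 152 CPM and siPSF replicates 1 and 2 were at 104 and 105 CPM. SMCR8 (-0.12) and WDR41 (0.09) were not called. Among 15 autophagy receptors, ATG8 proteins and TBK1 adaptors, 3 were higher and 0 lower (20% called, beside 14.9% of all genes, median 0.09). They were TBKBP1, an adaptor of TBK1 (0.34), TAX1BP1, an autophagy receptor (0.33), and GABARAPL2, an ATG8 protein (0.28). On rescaled FPKM 0 of the list were called, and these values were 0.17, 0.14 and 0.09 (limma adjusted p = 0.135, 0.434 and 0.49). The list median there was 0.11 over the all-gene median of that scale. OPTN, a receptor phosphorylated by TBK1, was at 0.20 (edgeR adjusted p = 0.166). Of 24 VCP cofactors, 12.5% were called, beside 14.9% of all genes. UBXN1 (134 to 195 CPM, 0.54) and UBXN11 (0.32) were higher and FAF1 (-0.66) was lower, all adaptors that bind VCP through a UBX domain. FAF1, a gene of 523 kb, fell from 99.4, 94.1 and 91.2 CPM to 61.4, 59.9 and 58.7 CPM, and both FAF1 and UBXN1 were called with each library left out. A relation between fold change and gene length was not tested.

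Around GRN, 17 of 18 receptors of progranulin and lysosomal genes were tested, with 1 higher and 1 lower (11.8% called, beside 14.9% of all genes, median -0.04). NPC2, a cholesterol carrier of the lysosome, rose from 15.6 to 19.7 CPM (0.33). SORT1, the progranulin receptor sortilin (-0.19, edgeR adjusted p = 0.149), and PSAP, which encodes prosaposin (0.08), were not called. Around SOD1, 17 of 18 chaperone and oxidant defence genes were tested, and 3 were higher and 0 lower by edgeR (17.6% called, beside 14.9% of all genes). DESeq2 called 5 higher, limma on FPKM 1 and limma on rescaled FPKM 0. PRDX1, a peroxiredoxin, rose from 118, 110 and 103 CPM to 155, 158 and 142 CPM (0.46, edgeR adjusted p = 0.004), TXN, thioredoxin, by 0.36 and TXNRD1, its reductase, by 0.29 on the log2 scale. The fold change was above 0 for 16 of the 17, with a median of 0.15, beside 0.01 over all genes. On rescaled FPKM the median of the list was -0.02, or 0.14 over the all-gene median there. CCS, the copper chaperone of SOD1, was at 0.06. Of the called partner genes not yet qualified, KALRN and PRDX1 were called in all 6 fits that left out a library, TBKBP1 in 5, INSR in 4, TAX1BP1 and TXN in 3, ATG13, GABARAPL2 and TXNRD1 in 2, and UBXN11 and NPC2 in 1. On rescaled FPKM, limma called HNRNPA1, MAPT, KALRN, INSR, ATG13, UBXN1 and FAF1 in the same direction, and did not call FIG4 (0.23), UBXN11 (0.12), NPC2 (0.13), PRDX1 (0.27), TXN (0.16) and TXNRD1 (0.10).

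**Figure D4:**
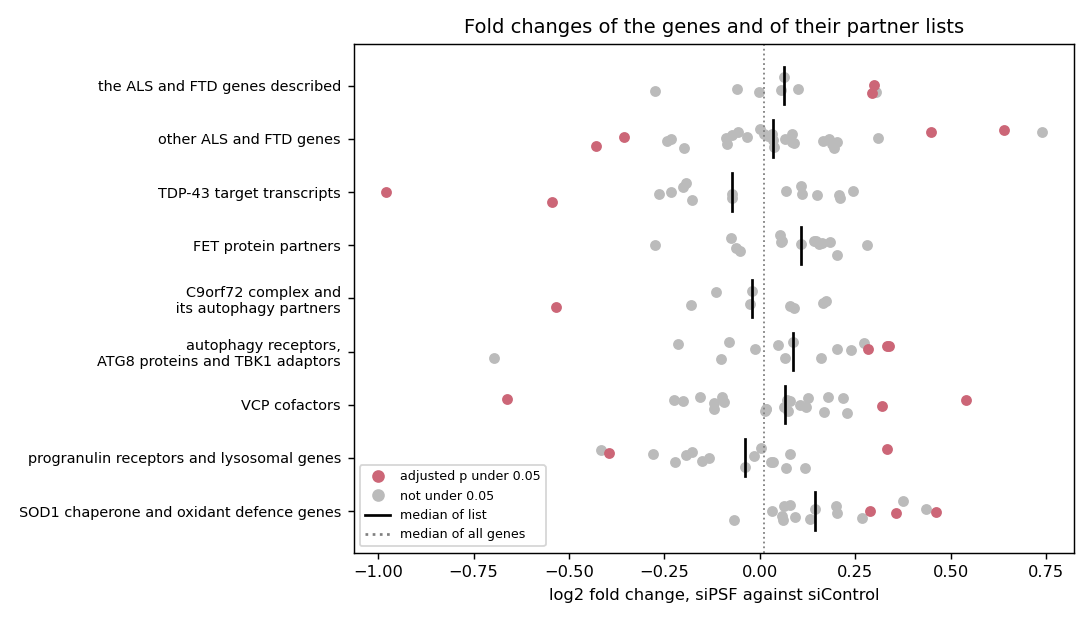
Each point is a gene, placed by its log2 fold change of siPSF against siControl, for the 9 genes described and 8 lists of related genes. Red points had an edgeR adjusted p under 0.05, black lines are list medians and the dotted line is the median of all genes (0.01). KALRN, FAF1, INSR and ATG13 lie farthest to the left among the red points, and HNRNPA1 and UBXN1 farthest to the right.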

How the data were processed

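RNA-seq of SH-SY5Y cells was analysed as 6 libraries, 3 siControl and 3 siPSF, grouped and numbered by the sample titles. The authors deposited a single table that gives every gene a whole-number count and an FPKM for each library, and 0 per-sample columns were left unused. To make the counts, reads were mapped to GRCh38 and counted on RefSeq genes; the study's methods name Bowtie 2 and TopHat and a kit that does not mark strand, while the submitters' processing notes name Trimmomatic, HISAT2 2.1.0 and StringTie 2.1.3b and the labels a stranded kit, so the use of strand is not settled. The deposited FPKM values divide by exon length and mapped reads. No listed gene has a count under 1 in any library, and genes at 0 were not analysed here.

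Counts were tested with edgeR 4.0.16 (filterByExpr, TMM, glmQLFit, glmQLFTest, R 4.3.3), leaving 19694 of 21301 genes, with a common biological coefficient of variation of 12.6%. Benjamini-Hochberg adjustment ran over all genes tested, called under 0.05. CPM are TMM-normalised. Between 101540520 and 132420931 counts per library stood behind the values, and pairs of replicate libraries differed by more than the sampling noise. In both groups the pairs that held replicate 3 differed most. Fold changes on FPKM used limma 3.58.1 on log2(FPKM + 0.5), genes of a mean of at least 0.5, as deposited and rescaled to a common sum per library. DESeq2 1.42.0, its size factors, no low-count filter, each library left out and the replicate number as a block were the other alternatives. The script was tested on simulated counts.

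The 9 genes, the lists and the tests were chosen with earlier results of these data known. All 9 were named; from each list the called genes, at most 3 by p (some items are not reported here), and the nearest partners SMCR8, WDR41, CCS, SORT1, PSAP, OPTN and TNPO1. Genes of like pattern were the 2 with the smallest root mean square difference of centred log2 CPM, for each called gene, from a mean of 10 CPM. Marker genes of cell types and SFPQ were added. Gene positions and promoter windows come from RefSeq (GRCh38.p14).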

Additional observations from a re-analysis of the deposited data

How the results depend on the processing

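The number of the 9 genes called was 2 with all libraries and 0 to 3 when each library was left out. It was 0 with limma on FPKM and 0 on rescaled FPKM, and 2 with the replicate number as a block, with DESeq2, with its size factors and without the low-count filter. Leaving out each library gave 1500 to 3140 genes called, 572 to 1405 higher and 928 to 1735 lower, 2 to 4 of the other ALS and FTD genes, and 3 to 16 of the 97 genes of the partner lists, of which 12 were called with all libraries. The lowest of these counts came without siControl replicate 2 (1500 genes), then without siControl replicate 3 (1754 genes). Genes called higher numbered 717 with limma on FPKM and 429 on rescaled FPKM, where 3073 were lower. The log2 fold change of EWSR1 crossed 0 among the fits that left out a library (-0.0388 to 0.0306: 0.0306 without siControl replicate 1, 0.0071 without siPSF replicate 1, 0.016 without siPSF replicate 2). That of TAF15 was -0.016 and -0.13 on FPKM and rescaled FPKM, that of VCP -0.0252 and -0.14 (-0.0111 to 0.13 with each library left out) and that of SQSTM1 -0.11 on rescaled FPKM (-0.0465 to 0.25 with each library left out). The negative values of VCP and SQSTM1 came without siPSF replicate 2. The median of all genes moved from 0.01 to -0.06 and -0.16 on these scales. The cause was not tested. Correlations of same-numbered deviations from the group means were -0.0198, 0.271 and 0.106. Those of differently numbered libraries lay between -0.309 and 0.194, so whether the numbers pair the libraries is not settled. The replicate block called 3029 genes, 2 of the 9, 4 of the other ALS and FTD genes and 15 of the partner genes. With the block, C9orf72 had a log2 fold change of -0.29 (SE 0.092, edgeR adjusted p = 0.0742) and was still not called. DESeq2 gave no adjusted p for 2065 genes. With 3 libraries a group, the SE of the log2 fold changes without the block, 0.076 for TAF15 to 0.14 for C9orf72, limits what could be detected.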

Other observations

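The ratio of counts to FPKM gives the exonic length that the authors' FPKM used in each library, relative to that library's median gene. For 7 of the 9 genes it varied by at most 1.71% over the 6 libraries. For TARDBP it varied by 5.48% and for EWSR1 by 6.05%, and siPSF replicate 3 had the lowest value of both (1.23 and 0.710). For these genes a difference in FPKM and a difference in counts are therefore not the same measurement, although neither gene was called on either scale.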
